A study of Mus musculus with 8 samples.

Results

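*Kit*, its ligand gene *Kitl* and 6 transcription factor genes of spermatogonial commitment (*Sohlh1*, *Sohlh2*, *Sox3*, *Dmrt1*, *Dmrtb1* and *Neurog3*) were followed by RNA-seq in cultured mouse spermatogonia. These 8 genes were chosen by name from the 55421 genes of the count table, and all 8 were among the 20477 genes with enough reads to be tested. The cells, of the C57BL/6XDBA/2 background, were taken from the testes of pups at 6 days of age and were kept as a culture of spermatogonial stem cells on irradiated mouse embryonic fibroblasts, a feeder layer whose RNA is part of each library. The 4 conditions lasted 2 days. Veh was complete spermatogonial medium, RA was the same medium with retinoic acid, NR was nutrient restriction medium of 10% complete medium and 90% Earle's Balanced Salt Solution (EBSS), and NRRA was that restricted medium with retinoic acid. NR and NRRA thus also had less of the growth factors of the complete medium, including GDNF and FGF2. Each condition had 2 libraries, described by the study as independent biological replicates, with 19261333 to 30023585 counted reads.

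KIT is a receptor tyrosine kinase that marks spermatogonia once they start to differentiate, and KITL (stem cell factor) is its ligand, made in the testis mainly by Sertoli cells. SOHLH1 and SOHLH2 are basic helix-loop-helix (bHLH) factors that can pair with each other and are needed for *Kit* expression and spermatogonial differentiation. SOX3 and NEUROG3 mark spermatogonia that are committed to differentiate but have not yet done so, DMRT1 restrains entry into meiosis in spermatogonia, and DMRTB1 (DMRT6) acts in differentiating spermatogonia before meiosis. Retinoic acid is the signal that moves undifferentiated spermatogonia to the KIT-positive state.

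The germ cell markers *Ddx4* (131 to 191 CPM) and *Dazl* (299 to 467 CPM) were found in every library. CPM is the count of a gene relative to the total of its library, scaled by the TMM method. The summed level of 8 germ cell markers was 786 and 803 CPM in Veh, 829 and 895 in RA, 993 and 960 under NR and 930 and 960 under NRRA. The summed level of 12 fibroblast markers was far higher and moved between conditions, from 22400 and 22600 CPM in Veh to 19200 and 17800 in RA, 34300 and 35700 under NR and 28600 and 27800 under NRRA. None of the 8 germ cell or 12 fibroblast markers was at 0 in any library. Of 8 Sertoli markers, *Inhbb* (69.6 to 261 CPM), *Sox9* (7 to 37.5 CPM) and *Wt1* (4.08 to 9.05 CPM) had the highest levels. The others had few reads, with at most 1 count in a library for *Fshr*, 5 for *Amh*, 21 for *Cldn11*, 27 for *Gata4* and 43 for *Dhh*. Mast cells and melanocytes also express *Kit*. Of 8 markers of these cells, only *Pmel* (6.08 to 8.16 CPM) had more than a few reads. *Dct* had at most 5 counts in a library, *Mlana* and *Tpsb2* at most 3, and *Cpa3*, *Mcpt4*, *Fcer1a* and *Tyr* at most 1. In such mixed bulk RNA, fewer cells of a type and less RNA per cell cannot be told apart.

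**Figure D1:**
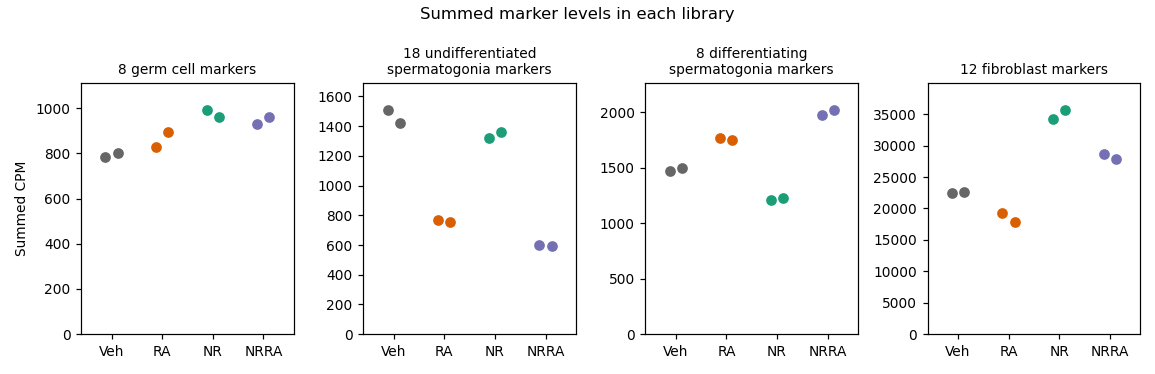
Summed CPM (vertical axes, starting at 0) of 4 fixed lists of marker genes in each of the 8 libraries (points, 2 per condition). The germ cell sum runs from 786 CPM in a Veh library to 993 in an NR library, the sum of undifferentiated markers is lowest in RA and NRRA, and the fibroblast sum is lowest in RA and highest in NR.

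Each difference was tested by the quasi-likelihood F test of edgeR in a fit of all 8 libraries, with Benjamini-Hochberg adjustment over the 20477 genes. A gene is said to have risen or fallen when its adjusted p was under 0.05. SE is an approximate standard error, the size of the log2 fold change divided by the square root of F. For a gene with few reads, such as *Neurog3*, this SE can be smaller than the counting error. The 6 pairwise comparisons share libraries, so they are not independent of each other. With a biological coefficient of variation of 3.35%, small differences passed the test, and between 40.3% and 58.9% of all genes did so in each pairwise comparison. Counts of genes are therefore given beside the share of all genes in the same comparison.

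The promoters of 6 of the 8 genes were found in the RefSeq table (GRCm38.p6), and 4 are printed here. *Kit* and *Neurog3* were the genes with the largest changes, and *Sohlh1* and *Sohlh2* encode bHLH partners that moved apart under nutrient restriction. Each sequence is the 250 bases before the transcription start of RefSeq, 5′ to 3′ on the strand of the gene, with the E-box CANNTG, the core to which bHLH factors bind, in capitals. The windows are chr5:75574737-75574986 on the plus strand for *Kit*, chr2:25847249-25847498 on the minus strand for *Sohlh1*, chr3:55181794-55182043 on the plus strand for *Sohlh2* and chr10:62132840-62133089 on the plus strand for *Neurog3*. The RefSeq starts of *Kit* and *Sohlh2* lie inside the genes as GENCODE M21 draws them, the source of the gene coordinates, so these 2 windows reach into the annotated gene.
Kit: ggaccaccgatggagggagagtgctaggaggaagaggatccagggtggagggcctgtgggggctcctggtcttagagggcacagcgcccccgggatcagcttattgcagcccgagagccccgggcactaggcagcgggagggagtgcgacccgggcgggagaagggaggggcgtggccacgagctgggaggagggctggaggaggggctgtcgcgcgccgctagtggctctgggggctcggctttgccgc
Sohlh1: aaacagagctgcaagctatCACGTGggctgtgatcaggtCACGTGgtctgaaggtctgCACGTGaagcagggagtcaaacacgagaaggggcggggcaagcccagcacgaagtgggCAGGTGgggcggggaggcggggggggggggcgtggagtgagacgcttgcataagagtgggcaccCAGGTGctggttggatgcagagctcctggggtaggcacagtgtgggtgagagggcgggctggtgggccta
Sohlh2: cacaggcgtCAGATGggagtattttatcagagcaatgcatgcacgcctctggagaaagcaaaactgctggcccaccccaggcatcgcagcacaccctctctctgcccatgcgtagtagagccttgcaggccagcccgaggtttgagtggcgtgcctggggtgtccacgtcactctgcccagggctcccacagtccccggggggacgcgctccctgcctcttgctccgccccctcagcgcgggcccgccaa
Neurog3: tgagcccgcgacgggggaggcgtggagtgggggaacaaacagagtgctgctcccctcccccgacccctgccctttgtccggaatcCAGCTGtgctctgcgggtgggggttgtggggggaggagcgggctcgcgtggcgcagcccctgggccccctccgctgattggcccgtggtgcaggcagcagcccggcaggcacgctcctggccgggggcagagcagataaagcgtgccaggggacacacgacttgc

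The *Sohlh1* window held 5 E-boxes, which start 231, 211, 192, 134 and 70 bases before the start, and 3 of them were the palindrome CACGTG. Among 32851 promoter windows of this length, searched on both strands, 66.2% held at least 1 CANNTG, 12.2% held 3 or more, 6.02% held CACGTG and 0.0609% held 3 or more CACGTG. The *Sohlh1* window also held AGGTCA, the nuclear receptor hexamer, at 215 bases, overlapping 1 CACGTG, and 14% of all windows held that hexamer. *Sohlh2* had 1 CANNTG at 241 bases and *Neurog3* had 1 at 165 bases before the start. *Dmrtb1* had 2, and the windows of *Kit* and *Kitl* had 0. The *Kitl* window, from 100015571 to 100015820, also reaches into the gene as GENCODE M21 draws it, from 100015630. *Sox3* and *Dmrt1* had no entry. The motifs were chosen after the sequences and levels were seen, and a match describes letters and is not evidence of binding.

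*Kit* (ENSMUSG00000005672, chromosome 5 of GRCm38 from 75574916 to 75656722, plus strand) rose in every treatment. Its level was 6.34 and 6.31 CPM in the Veh libraries, 23.8 and 23.6 in NR, 212 and 203 in RA and 359 and 357 in NRRA. The 4 conditions were fully separated, in the order Veh, NR, RA and NRRA. The change against Veh was 5.03 on the log2 scale in RA (SE 0.0685, 32.7-fold, adjusted p = 9.37e-27), which ranked 2 by p among all genes. It was 5.82 in NRRA (SE 0.0667, 56.6-fold, adjusted p = 1.26e-28), again rank 2 by p, and 1.91 in NR (SE 0.0877, 3.75-fold, adjusted p = 7.97e-16). NRRA was above RA by 0.79 (SE 0.0424, adjusted p = 1.66e-14) and above NR by 3.92 (SE 0.0531, 15.1-fold, adjusted p = 5.56e-27). NR was below RA by a log2 difference of -3.13 (SE 0.0536, adjusted p = 3.11e-25). On the log2 scale, the step from medium without to medium with retinoic acid was smaller in restricted than in complete medium. The difference between the log2 changes (interaction) was -1.12 (SE 0.1, adjusted p = 7.56e-09). In CPM the step was larger in restricted medium, where the mean went from 23.7 to 358, against 6.32 to 207 in complete medium. *Kit* started from a higher level in NR than in Veh.

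*Kitl* (ENSMUSG00000019966, chromosome 10 from 100015630 to 100100416, plus strand) also rose in every treatment, and its highest level was in RA, not in NRRA. The libraries had 18 and 21.8 CPM in Veh, 28.4 and 31.1 in NR, 39.2 and 38.3 in NRRA and 51.3 and 54.9 in RA. No 2 conditions overlapped. Against Veh, *Kitl* was 1.42 higher on the log2 scale in RA (SE 0.0781, 2.68-fold, adjusted p = 6.9e-14), 0.96 in NRRA (SE 0.0793, 1.95-fold, adjusted p = 6.57e-11) and 0.59 in NR (SE 0.0839, adjusted p = 2.16e-06). NRRA was below RA with a log2 change of -0.46 (SE 0.067, adjusted p = 2.99e-06) and above NR with 0.38 (SE 0.0721, adjusted p = 0.000111). The interaction was -1.05 (SE 0.107, adjusted p = 7.13e-08), of a size close to that of *Kit*. The summed fibroblast markers were lowest in RA, at 19200 and 17800 CPM, where *Kitl* was highest, and the summed Sertoli markers, most of them reads of *Inhbb*, were at 302 and 276 CPM in Veh, 169 and 165 with RA, 152 and 156 under NR and 86.5 and 83.1 under NRRA. Most other Sertoli markers had few reads, so these sums do not establish that Sertoli cells were present. The part of fibroblasts, or of any Sertoli cells, in the *Kitl* level was not tested.

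**Figure D2:**
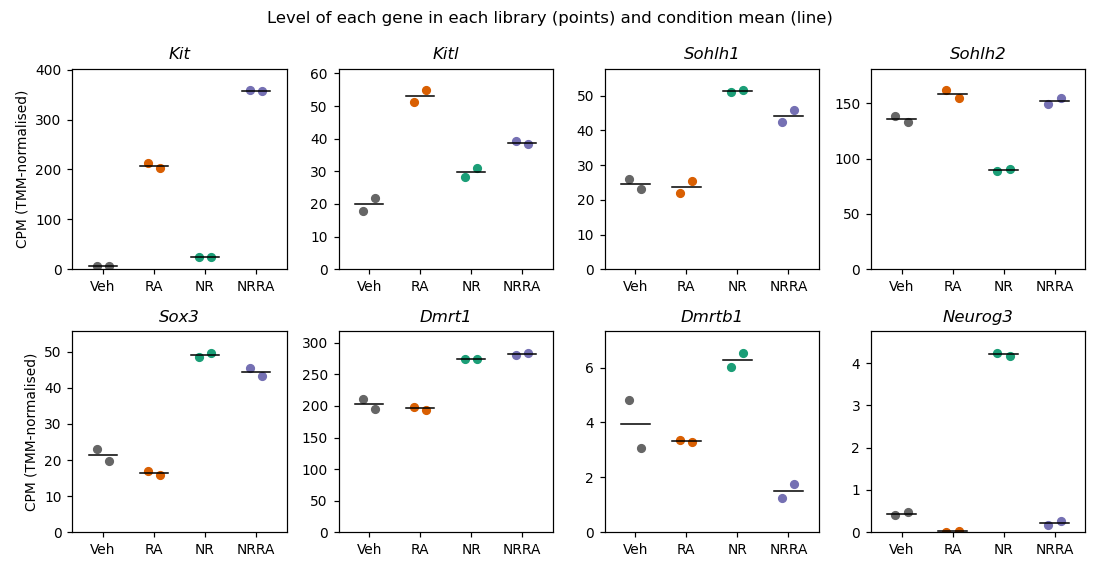
CPM after TMM normalization (vertical axes, linear, starting at 0) of the 8 genes in each library (points, 2 per condition) with the condition mean (line). *Kit* runs from 6.31 CPM in Veh to 359 in NRRA, *Sohlh1*, *Sox3* and *Dmrt1* are higher in NR and NRRA than in Veh and RA, and *Neurog3* is above 4 CPM only in the 2 NR libraries.

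The receptor and its ligand were also compared as levels per kilobase of exon, the scale on which different genes can be set side by side. The ratio of *Kit* to *Kitl* in CPM per kb was 0.234 and 0.192 in the Veh libraries and 0.555 and 0.504 in NR, so the ligand transcript was the more abundant of the pair. With retinoic acid the ratio was 2.74 and 2.45 in RA and 6.09 and 6.17 in NRRA, with the receptor transcript the more abundant. Each library mixes germ cell and feeder RNA, so the ratio does not compare receptor and ligand within the same cells.

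*Sohlh1* (ENSMUSG00000059625, chromosome 2 from 25842995 to 25847248, minus strand), the bHLH gene with the 3 CACGTG letters printed above, rose in restricted medium with and without retinoic acid. It had 25.9 and 23 CPM in Veh, 22.1 and 25.5 in RA, 50.9 and 51.6 under NR and 42.5 and 46 under NRRA. The RA libraries lay around those of Veh, and both restricted conditions were above them. *Sohlh1* rose by 1.07 on the log2 scale in NR (SE 0.0752, 2.1-fold, adjusted p = 5.89e-12) and by 0.86 in NRRA (SE 0.0747, adjusted p = 2.08e-10). In RA the log2 change was -0.03 (SE 0.0826, adjusted p = 0.8), with a sign that depended on the scaling. NRRA was above RA by 0.89 (SE 0.0725, adjusted p = 1.04e-10), and slightly below NR (-0.21, SE 0.0658, adjusted p = 0.0111). The last call was lost without NR replicate 2 (adjusted p = 0.0741), without NRRA replicate 1 (adjusted p = 0.174) and when libraries were scaled to the germ cell markers (adjusted p = 0.109).

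*Sohlh2* (ENSMUSG00000027794, chromosome 3 from 55182028 to 55209957, plus strand), which encodes the partner of SOHLH1, fell in NR, where *Sohlh1* rose. Its libraries had 139 and 133 CPM in Veh, 162 and 155 in RA, 88.6 and 90.3 under NR and 149 and 155 under NRRA. NR was below all other libraries, and the upper NRRA library and the lower RA library were at the same rounded level. The fall in NR was -0.60 on the log2 scale (SE 0.0489, adjusted p = 9.88e-11). Retinoic acid raised *Sohlh2* by 0.22 in complete medium (SE 0.047, adjusted p = 0.000418) and by 0.77 in restricted medium (SE 0.0476, adjusted p = 5.56e-13). The effect in restricted medium was the larger, with an interaction of 0.54 (SE 0.0669, adjusted p = 1.45e-06). NRRA did not differ from RA beyond the threshold (-0.06, SE 0.0457, adjusted p = 0.335) and was 0.16 above Veh (SE 0.0466, adjusted p = 0.00422). The largest part of the summed germ cell markers was *Dazl*, which itself rose on the log2 scale in RA (0.45) and NRRA (0.58). Scaled to this sum, *Sohlh2* changed against Veh by 0.11 in RA (adjusted p = 0.28) and by -0.09 in NRRA (adjusted p = 0.33). On the same scale NRRA was below RA, with -0.19 (adjusted p = 0.0333). Both small rises against Veh thus rest on the scaling, while the fall in NR and the interaction kept an adjusted p under 0.05. Without NRRA replicate 2, the NRRA change was 0.13 (adjusted p = 0.0854).

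In CPM per kb, the ratio of *Sohlh2* to *Sohlh1* was 2.92 and 3.16 in Veh, 3.99 and 3.33 in RA, 0.949 and 0.954 under NR and 1.91 and 1.84 under NRRA. In NR the pair was near equality, with *Sohlh1* slightly ahead in both libraries.

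**Figure D3:**
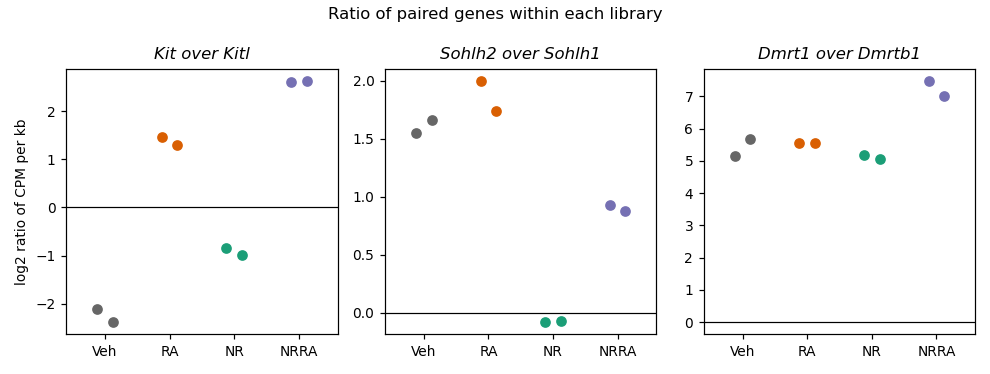
Log2 ratio of CPM per kilobase of exon (vertical axes) between 2 genes within each library (points), with a line at equal levels. *Kit* over *Kitl* lies below the line in Veh and NR and above it in RA and NRRA, *Sohlh2* over *Sohlh1* meets the line in NR, and *Dmrt1* over *Dmrtb1* is highest in NRRA.

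*Sox3* (ENSMUSG00000045179, chromosome X from 60891366 to 60893430, minus strand, a gene of 1 exon) had a profile like that of *Sohlh1*. It was at 23.2 and 19.6 CPM in Veh, 17.1 and 15.8 in RA, 48.6 and 49.7 under NR and 45.5 and 43.4 under NRRA. All libraries of restricted medium were above all libraries of complete medium. *Sox3* rose in NR by 1.20 on the log2 scale (SE 0.0747, 2.29-fold, adjusted p = 4.93e-13) and in NRRA by 1.05 (SE 0.074, 2.07-fold, adjusted p = 2.98e-12). It fell in RA, with -0.39 (SE 0.0869, adjusted p = 0.00062). NRRA was above RA by 1.44 (SE 0.0748, adjusted p = 7.67e-15). Its log2 change from NR to NRRA was -0.15 (SE 0.0641, adjusted p = 0.0678), a value that passed under other settings, such as -0.17 with the size factors of DESeq2 (edgeR adjusted p = 0.0398). The study had picked *Sohlh1* and *Sox3* on these same libraries as genes raised by nutrient restriction, so their direction in NR is not independent evidence.

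*Dmrt1* (ENSMUSG00000024837, chromosome 19 from 25505618 to 25604329, plus strand) was the most abundant of the 8 genes per kilobase in every condition. It had 211 and 195 CPM in Veh, 199 and 194 in RA, 275 and 274 under NR and 280 and 284 under NRRA. The rise in restricted medium was 1.35-fold in NR (log2 0.43, SE 0.0443, adjusted p = 8.18e-09) and 1.39-fold in NRRA (log2 0.47, SE 0.044, adjusted p = 6.85e-10). Retinoic acid made no difference past the threshold in complete medium (-0.05, SE 0.0448, adjusted p = 0.422) or in restricted medium (0.04, SE 0.043, adjusted p = 0.484). The summed germ cell markers were themselves higher in NR (993 and 960 CPM) than in Veh (786 and 803 CPM), and 6 of the 8 rose and 0 fell there, against 2 that rose and 5 that fell in RA and likewise in NRRA. Scaled to them, *Dmrt1* was 0.14 higher in NR (adjusted p = 0.132), a change no longer past the threshold, and it still passed in NRRA. On that scale the median of all genes moved by -0.289 in NR vs Veh.

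*Dmrtb1* (ENSMUSG00000028610, chromosome 4 from 107676290 to 107684230, minus strand), the other DM-domain gene, was scarce and fell with retinoic acid when nutrients were restricted. The libraries had 4.8 and 3.07 CPM in Veh, 3.36 and 3.29 in RA, 6.02 and 6.53 under NR and 1.25 and 1.77 under NRRA. NR was highest and NRRA lowest, while RA lay within the range of the Veh libraries, which differed from each other the most. From NR to NRRA the change was -2.05 on the log2 scale (SE 0.196, adjusted p = 2.6e-09), and from Veh to RA it was -0.25 (SE 0.198, adjusted p = 0.329). The interaction was -1.80 (SE 0.284, adjusted p = 5.77e-05), the largest in size that passed among the 8 genes. Against Veh, *Dmrtb1* was lower in NRRA (-1.38, SE 0.222, adjusted p = 6.83e-06) and higher in NR (0.67, SE 0.177, adjusted p = 0.0031). The rise in NR rested on Veh replicate 2, without which it was 0.40 (adjusted p = 0.0878), and it was 0.37 (adjusted p = 0.0562) when scaled to the germ cell markers. Without Veh replicate 2 the change in RA was -0.51 and passed (adjusted p = 0.0469), and without Veh replicate 1 it was 0.14. The ratio of *Dmrt1* to *Dmrtb1* in CPM per kb was 35.3 and 50.9 in Veh, 47.6 and 47.3 in RA, 36.6 and 33.7 under NR and 180 and 129 under NRRA.

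*Neurog3* (ENSMUSG00000044312, chromosome 10 from 62133090 to 62134763, plus strand) had its highest level under nutrient restriction without retinoic acid. It had 8 and 9 reads in the Veh libraries, 0 and 1 in RA, 88 and 110 under NR and 5 and 8 under NRRA, which is 4.24 and 4.18 CPM in NR and at most 0.469 CPM in the others. *Neurog3* passed the filter on low counts through both NR libraries and 1 Veh library, so its presence among the tested genes already rests on NR. NR exceeded Veh 9.74-fold by counts (95% interval 5.93 to 17.1, exact binomial on the summed reads, counting error only), and the fitted change was 3.27 on the log2 scale (SE 0.298, adjusted p = 9.4e-10). NR exceeded NRRA 19.1-fold (interval 10.9 to 36.6), with a fitted log2 change from NR to NRRA of -4.23 (SE 0.305, adjusted p = 1.06e-11). Against the 1 read of both RA libraries together, the count ratio was 20.9 for Veh (interval 3.28 to 874), 10.7 for NRRA (1.6 to 453) and 204 for NR (36.1 to 8090). The fall from Veh to RA had an adjusted p of 0.000475. The difference between NRRA and Veh did not pass (log2 -0.96, SE 0.518, adjusted p = 0.116). The excess of NRRA over RA passed with edgeR (adjusted p = 0.0113) but not with DESeq2 (adjusted p = 0.0731), nor without RA replicate 1 (0.0728) or without NRRA replicate 2 (0.074). Of its exon bases, 16.3% overlap *Fam241b* on the opposite strand. The use of strand in the counting is not given in the sources used here, so reads of that overlap cannot be assigned with certainty.

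As a group, the 8 genes were counted against the share of all tested genes that passed. In NR vs Veh, 7 rose and 1 fell, beside 21.7% of all tested genes higher and 22.2% lower. Their median log2 change was 0.87, beside 0.006 for all tested genes. In RA vs Veh, 3 rose and 2 fell (background 19.8% higher and 23.4% lower), with a median of -0.04 beside -0.019. In NRRA vs Veh, 6 rose and 1 fell (30.1% and 28.7%), with a median of 0.66 beside 0.03. NRRA was above RA for 5 genes and below it for 2 (20.9% and 19.4%), with a median of 0.65 beside 0.016. From NR to NRRA, 3 rose and 3 fell (21.3% and 22.1%), and from RA to NR 5 rose and 3 fell (24.5% and 23.8%). The interaction passed for 4 genes, higher for *Sohlh2* and lower for *Kit*, *Kitl* and *Dmrtb1* (6.37% and 6.58%). With a fold of at least 2 as well, 3 of the 8 genes passed in RA vs Veh (7.49% of all genes), 4 in NR vs Veh (8.29%), 3 in NRRA vs Veh (15.9%), 3 in NRRA vs RA (8.29%), 3 in NRRA vs NR (8.7%), 4 in NR vs RA (12.5%) and 3 in the interaction (2.24%). Among the genes that rose in NR, *Neurog3* passed the filter on low counts only with the NR libraries. *Sohlh1* and *Sox3* had been picked by the study on these same libraries as raised by nutrient restriction. The genes were chosen with earlier results of these data known, so these counts carry no test.

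**Figure D4:**
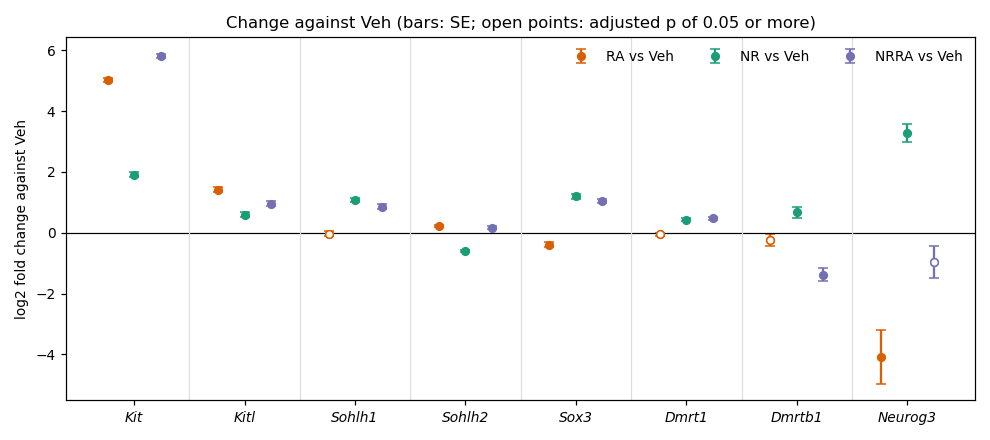
Log2 fold change against Veh (vertical axis) of the 8 genes in RA, NR and NRRA, with bars of 1 SE. Filled points have an adjusted p under 0.05. NR is above 0 for every gene but *Sohlh2*, *Kit* has the highest points, and the RA point of *Neurog3* rests on 1 read in 2 libraries.

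**Figure D5:**
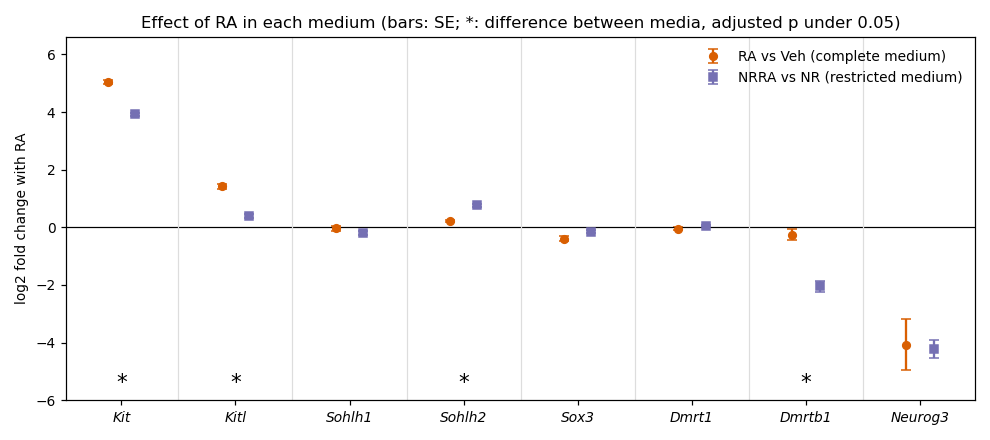
Log2 fold change with retinoic acid (vertical axis) in complete medium (RA vs Veh, circles) and in restricted medium (NRRA vs NR, squares), with bars of 1 SE. Stars mark the 4 genes whose 2 effects differ with an adjusted p under 0.05, namely *Kit*, *Kitl*, *Sohlh2* and *Dmrtb1*.

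Per kilobase of exon, the order of the levels changed with treatment for *Kit* above all. In Veh, *Dmrt1* (78.3 CPM per kb) came before *Sohlh2* (57.5), *Sohlh1* (19), *Sox3* (10.4), *Kitl* (3.36), *Dmrtb1* (1.89), *Kit* (0.71) and *Neurog3* (0.258). *Kit* moved up to the third place in RA, with 23.3 CPM per kb, and kept it in NRRA, with 40.2. In NR it stayed in the next-to-last place, with 2.66 CPM per kb between *Dmrtb1* (3.01) and *Neurog3* (2.51). Within each condition, the 2 libraries of neighbouring genes in this order did not overlap. These orders are descriptions, since lengths of the transcripts in use can differ from the exon length of the annotation.

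Across the 8 libraries, the profiles of *Sox3* and *Dmrt1* (Pearson r = 0.981 of log2 CPM), *Sohlh1* and *Sox3* (0.97) and *Sohlh1* and *Dmrt1* (0.966) ran together, *Kit* and *Kitl* less closely (0.888), and *Sohlh2* ran against *Neurog3* (-0.965). Among 16648 genes with a mean of at least 1 CPM, the profiles closest to *Kit* were those of *Stra8* (r = 0.997), *Zfp667* (0.996) and *Cdc25c* (0.996). For *Kitl* they were *Adamts6* (0.992), *Xiap* (0.992) and *Htr2a* (0.981), for *Sohlh1* *Mapk10* (0.991), *Mat2b* (0.991) and *Tent5a* (0.99), and for *Sohlh2* *Blvrb* (0.995), *Dysf* (0.995) and *Fjx1* (0.994). *Sox3* was followed by *Six5*, *Igfbp7* and *Igdcc4* (each 0.997), *Dmrt1* by *Parp12* (1 after rounding), *Atf5* (0.999) and *Gnai1* (0.998), *Dmrtb1* by *Rab3ip* (0.988), *Grap2* (0.968) and *Pdk1* (0.961), and *Neurog3* by *Tdrd1*, *Fst* and *Map3k15* (each 0.994). With 4 conditions, many genes share such a profile, and these values are descriptions over libraries that share conditions, with no test.

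The genes around these 8 were read from fixed lists, beside medians over all tested genes of -0.019 in RA vs Veh, 0.006 in NR vs Veh and 0.03 in NRRA vs Veh and the shares that passed, given above. Of 18 markers of undifferentiated spermatogonia, 14 fell and 1 rose in RA vs Veh, with a median of -1.21, and 16 fell and 1 rose in NRRA vs Veh, with a median of -2.06. Leaving out markers whose mean was under 1 CPM, the largest falls in RA were those of *Nanos2* (-5.30, SE 0.41), a repressor of differentiation, *Lhx1* (-3.68), *Nanos3* (-3.10), *Zbtb16* (-2.36), the gene of the self-renewal factor PLZF, and *Ret* (-2.15), the GDNF receptor. *Nanos2* had 68 and 68 reads in Veh and 3 and 1 in RA, so its SE can be smaller than the counting error. In NR vs Veh, 7 fell and 5 rose, with a median of -0.07. Among those that fell were *Eomes* (-1.30, with 35 and 51 reads in NR) and *Bcl6b* (-1.12). *Id4* (0.55) and *Nanos3* (0.37) were among those that rose, and the mean of *Zbtb16* was 164 CPM in Veh and 244 CPM in NR. Of 8 markers of differentiating spermatogonia, 5 rose and 2 fell in RA, 4 rose and 2 fell in NR and 6 rose and 2 fell in NRRA, with medians of 0.95, 0.11 and 0.97. *Stra8*, the retinoic acid-induced gatekeeper of meiosis, rose by 8.92 in RA (SE 0.0812), 3.44 in NR (SE 0.135) and 9.47 in NRRA (SE 0.0799, adjusted p = 1.25e-31). *Rec8*, a meiotic cohesin gene, rose by 3.41, 0.51 and 3.38 in the same order. Others went the other way, with *Ccnd2* lower in RA (-0.58), NR (-0.38) and NRRA (-0.76). *Rhox13* rose in RA (0.59) and fell in NR (-0.69).

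Of 30 genes that act downstream of the KIT receptor, more fell than rose in RA (17 and 4) and in NRRA (17 and 8), and 11 fell and 8 rose in NR, all against Veh. The medians were small, at -0.15, -0.20 and -0.08 in the same order. The adaptor *Sh2b3*, a negative regulator of cytokine receptors, fell by 1.07 on the log2 scale in RA, 1.04 in NR and 1.88 in NRRA (SE 0.051, adjusted p = 5.54e-21). The PI3 kinase subunit *Pik3cd* fell by 1.29 in RA and by 1.44 in NRRA. *Jak2* (1.10, SE 0.0585) and the regulatory PI3 kinase subunit *Pik3r1* (0.81, SE 0.0688) rose in NR, and *Pik3r1* rose in NRRA too (0.89). The ubiquitin ligase *Cblb* fell in NRRA by 0.86 and in NR by 0.53. *Ptpn6*, the phosphatase SHP-1, rose in NRRA by 0.82 (SE 0.128). These genes are also expressed in fibroblasts, whose markers moved with the conditions as given above, and the part of the feeder cells was not tested.

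Among the 10 genes of the class III receptor family and its ligands, *Kit* and *Kitl* included, 4 rose and 5 fell in RA, 6 rose and 3 fell in NR and 5 rose and 4 fell in NRRA, with medians against Veh of -0.09, 0.63 and 0.14. *Kit* and *Kitl* were the 2 of them that rose more than 2-fold in RA, where *Pdgfb* (-1.47, SE 0.0799), *Flt3* (-1.14, SE 0.214) and *Pdgfrb* (-0.84, SE 0.0417) fell. In NR, *Pdgfra* rose by 1.10 (SE 0.0446), *Flt3* by 0.73 and *Pdgfrb* by 0.67. *Pdgfrb* is also among the 12 fibroblast markers, of which 9 rose and 2 fell in NR, 10 fell in RA, and 7 rose and 5 fell in NRRA.

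Of the 7 bHLH partners and Id inhibitors, 5 fell and 1 rose in RA, 3 fell and 2 rose in NR and 2 fell and 3 rose in NRRA, with medians against Veh of -0.19, -0.05 and 0.09. *Id4*, an Id gene that marks stem spermatogonia, fell by 1.85 in RA (SE 0.125), rose by 0.55 in NR (SE 0.0935) and was 1.94 higher in NRRA than in RA (SE 0.117, adjusted p = 2.04e-13). *Id1* fell in RA (-0.70), NR (-0.63) and NRRA (-0.57). The interaction passed for *Id4* (1.39), *Id3* (0.98), *Id1* (0.77) and *Id2* (0.67), beside 6.37% of all tested genes higher. The E-protein genes *Tcf3* (0.21, adjusted p = 0.0538), *Tcf4* (-0.22, adjusted p = 0.0663) and *Tcf12* (0.03, adjusted p = 0.852) did not pass, and the Id genes were not tested against them.

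Of the 9 DM-domain genes, *Dmrt1* and *Dmrtb1* included, 8 were tested, and none rose and 3 fell in RA, 3 rose and 2 fell in NR and 2 rose and 4 fell in NRRA, with medians against Veh of -0.32, 0.06 and -0.45. *Dmrt3* fell in RA (-0.57, SE 0.113), NR (-0.77, SE 0.116) and NRRA (-0.52, SE 0.108), while *Dmrt2* rose in NR (0.48, SE 0.156) and NRRA (0.64, SE 0.148) and *Dmrta1* had at most 4 reads in a library. Of the 8 SoxB and neurogenin genes, 3 were tested. *Sox2*, the other of them beside *Sox3* and *Neurog3*, moved against *Sox3*. It rose in RA (0.55, SE 0.114) and fell in NR (-0.39, SE 0.127) and NRRA (-1.02, SE 0.132, adjusted p = 2.36e-07). *Neurog1* had at most 1 read and *Neurog2* at most 2 reads in any library.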

How the data were processed

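Poly(A) RNA of 8 cultures, 2 in each of Veh, RA, NR and NRRA, was sequenced as stranded libraries. Per the labels, reads were aligned to mm10 with STAR 2.6.1c and counted with featureCounts 1.6.4. The annotation release and the strand setting are not given in the sources used here. The authors deposited raw counts per gene, without normalization, and 0 of its columns were without a sample.

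Identifiers were matched to GENCODE M21 (55240 of 55421), which gave coordinates and exon lengths, and promoters were read from RefSeq (GRCm38.p6). In R 4.3.3, counts were filtered with filterByExpr, normalized with TMM and fitted with edgeR 4.0.16 on all 8 libraries together (4 residual degrees of freedom). The spread of each gene was moderated with that of all tested genes, so the small p-values do not rest on these 4 degrees of freedom alone. Benjamini-Hochberg adjustment was made within each comparison. Alternatives were DESeq2 1.42.0, the method of the study, other size factors, other filters, the replicate number as a block, only the groups compared, a fold of at least 2, each library left out and, chosen after the data were seen, removal of a GC and length trend and scaling to the summed germ cell markers. Figures were drawn with matplotlib 3.10.9. The fit was tested on simulated data.

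The 8 genes, the lists and the tests were chosen with earlier results of these data known. Named beside the 8 genes are, per list, up to 5 genes with the largest change among those past the threshold and with a mean of at least 1 CPM, and the 3 genes most correlated with each of the 8. Markers and genes with few reads that are named at counts were added for their identity. Replicate libraries differed by more than sampling noise, with a chi-square per gene of 1.58 to 3.93. *Neurog3* and *Dmrtb1* had the fewest reads of the 8 genes and the largest SE, which for *Neurog3* can still understate the uncertainty.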

Additional observations from a re-analysis of the deposited data

Results flagged for a closer look

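The effect of retinoic acid differed between the 2 media for 4 of the 8 genes, by edgeR's test of the interaction, which passed for 13% of all tested genes. The log2 change with retinoic acid in restricted medium minus that in complete medium was -1.12 for *Kit*, -1.05 for *Kitl*, 0.54 for *Sohlh2* and -1.80 for *Dmrtb1*. *Kit* rose with retinoic acid in both media (5.03 and 3.92), as did *Kitl* (1.42 and 0.38) and *Sohlh2* (0.22 and 0.77). *Dmrtb1* changed by -0.25 in complete medium (adjusted p = 0.329) and fell by 2.05 in restricted medium. In all 17 alternatives run for the interaction, these 4 interactions kept their sign and an adjusted p under 0.05, with -1.16 to -0.96 for *Kit*, -1.22 to -0.88 for *Kitl*, 0.48 to 0.71 for *Sohlh2* and -2.20 to -1.55 for *Dmrtb1*.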

How the results depend on the processing

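Of 997 values of the 8 genes recomputed under the alternatives, 956 kept their direction and side of the threshold, 11 lost and 14 gained an adjusted p under 0.05, and 16 changed sign. With a fold of at least 2 as well, 3 of the 8 genes were past the threshold in RA vs Veh, 4 in NR vs Veh, 3 in NRRA vs Veh, 3 in NRRA vs RA, 3 in NRRA vs NR and 4 in NR vs RA. The sign changes touched values that had not passed, except that *Sohlh2* in NRRA vs Veh was -0.09 when scaled to the germ cell markers. *Sohlh1* in RA vs Veh was 0.01 with upper-quartile factors, 0.00 with a filter of 1 CPM in 2 libraries, -0.15 to 0.09 with a library left out (0.09 without Veh replicate 1, 0.05 without RA replicate 1), 0.11 with the GC and length trend removed and 0.10 with the replicate block as well. *Dmrt1* in RA vs Veh was 0.03 without Veh replicate 1, 0.06 with the trend removed and 0.06 with the block as well, and *Dmrtb1* was 0.14 without Veh replicate 1 and -0.51 without Veh replicate 2. The interaction was -0.01 for *Dmrt1* without Veh replicate 1. For *Neurog3* it was 0.11 with DESeq2, -0.76 without RA replicate 1, 2.14 without RA replicate 2, 0.07 without NRRA replicate 1 and 0.04 when scaled to the germ cell markers. Beside the values given with the genes, *Dmrt1* in NRRA vs NR (0.08) and the interaction of *Sohlh1* (-0.27) passed with the trend removed, and that of *Sox3* passed without Veh replicate 2 (0.33) and scaled to the germ cell markers (0.41). The causes were not tested. Libraries with the same replicate number showed no shared deviation over all tested genes (correlations of -0.0334 to 0.0225), and the replicate block changed 0 of 56 calls. Noise in genes with few reads could hide a small shared deviation, so this check cannot exclude that the cultures were paired. The interaction needs all 4 conditions, so no fit of only the groups compared was run for it. DESeq2 called 1587 of 16165 genes in the interaction (9.82%), against 2652 of 20477 with edgeR (13%). Scaling to the germ cell markers moved the median of all genes by -0.139 (RA vs Veh), -0.289 (NR vs Veh) and -0.22 (NRRA vs Veh).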
